A study of Mus musculus with 7 samples.

Results

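H3K18La is histone H3 carrying a lactyl group, which cells make from lactate, on lysine 18. It is one of several acyl marks found on nucleosomes at active promoters and enhancers. CUT&Tag locates it with an antibody that brings a tethered enzyme to the mark, so that DNA fragments from marked nucleosomes are released and sequenced. The broad promoter domains described here are the H3K18La peaks that the deposited annotation places in the promoter of a protein-coding gene and that are 2500 bases wide or more. They were chosen by width alone, and 304 peaks met the rule among 11100 protein-coding promoter peaks (2.74%) and 108253 peaks in all. The other 10796 protein-coding promoter peaks, all under 2500 bases, serve for comparison and are called narrower promoter peaks.

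The samples were retinas of wild type C57Bl/6J mice at postnatal days 4, 10 and 28 (P4, P10 and P28), dissociated into single cells with papain, with no further genetic change or treatment. P4 and P10 were covered by 2 libraries each and P28 by 3, and P28 replicate 1 was the single library of batch 2 by its label. Each library mixes all cell types of the retina, so a larger share of a cell type and more mark per cell cannot be told apart. Peaks were called in these same libraries and merged over the ages, so width itself follows from the signal. Levels and changes of broad against narrower peaks are therefore given as a description, without a test.

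A mark at a promoter usually covers the few nucleosomes around the transcription start site. Where it spreads over several kilobases into the first intron or upstream sequence, the gene is often one that the cell type uses heavily or that defines the cell, as is known for broad domains of other active histone marks. In the retina the most abundant cells are rods, which complete their differentiation and grow outer segments between the first and the fourth postnatal week. Rods also turn much of their glucose into lactate. Promoters differ in sequence between those in CpG islands, which most housekeeping and developmental genes have, and CpG-poor ones, whose genes are more often restricted to a cell type.

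Both types were present among the broad domains. The size of the change from P4 to P10 differed with the CpG content of the whole domain. Whether it differed with that of the bases near the start was not tested. The bases just upstream of the start site are shown for 9 of the domains. Each is the run of 120 bases that ends immediately before the annotated start, read 5′ to 3′ on the gene's strand from the RefSeq GRCm38.p6 assembly, with every CG dinucleotide in capitals. None of these bases lies in an annotated exon, and all lie inside the domain. They were picked after the values were seen. Of the CpG-poor promoters, the first is that of Nr2e3, the nuclear receptor that silences cone genes in rods, at chr9:59950118-59950237 (minus strand). Next is Grk1, the kinase that switches off the activated rod photopigment, at chr8:13404961-13405080 (plus strand). Pde6b, the beta subunit of the rod phosphodiesterase, is at chr5:108388271-108388390 (plus strand). Gngt1, the gamma subunit of rod transducin, is at chr6:3993672-3993791 (plus strand), and Llgl2, a scaffold protein of cell polarity, is at chr11:115833805-115833924 (plus strand).

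Nr2e3: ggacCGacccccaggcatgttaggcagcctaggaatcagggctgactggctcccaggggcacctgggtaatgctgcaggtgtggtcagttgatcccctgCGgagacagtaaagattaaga
Grk1: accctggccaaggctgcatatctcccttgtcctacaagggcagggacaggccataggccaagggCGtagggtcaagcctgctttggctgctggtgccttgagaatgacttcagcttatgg
Pde6b: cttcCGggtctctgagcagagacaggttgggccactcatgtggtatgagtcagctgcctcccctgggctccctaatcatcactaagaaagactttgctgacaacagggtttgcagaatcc
Gngt1: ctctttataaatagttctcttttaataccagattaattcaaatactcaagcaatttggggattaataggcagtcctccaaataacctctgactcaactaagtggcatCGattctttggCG
Llgl2: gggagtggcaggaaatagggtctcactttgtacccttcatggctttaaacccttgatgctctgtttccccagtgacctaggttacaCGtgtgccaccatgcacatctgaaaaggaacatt

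These 5 runs held 1 or 2 CG dinucleotides each. The Gngt1 run contains ggattaat, which includes the reverse complement of TAATCC, the core sequence preferred by the photoreceptor homeodomain factors CRX and OTX2. The other 4 runs did not contain this hexamer on either strand. The CpG-rich examples are Sox4, a transcription factor of immature neurons, at chr13:28953714-28953833 (minus strand), and Foxo1 and Foxo3, transcription factors held in check by insulin signalling, at chr3:52268216-52268335 (plus strand) and chr10:42276756-42276875 (minus strand). The last is Jun, a subunit of the AP-1 transcription factor, at chr4:95052223-95052342 (minus strand).

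Sox4: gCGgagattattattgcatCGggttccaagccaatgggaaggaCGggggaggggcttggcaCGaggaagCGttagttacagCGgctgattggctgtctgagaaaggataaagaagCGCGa
Foxo1: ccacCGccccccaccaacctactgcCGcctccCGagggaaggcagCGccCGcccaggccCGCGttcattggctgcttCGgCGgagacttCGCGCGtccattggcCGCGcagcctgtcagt
Foxo3: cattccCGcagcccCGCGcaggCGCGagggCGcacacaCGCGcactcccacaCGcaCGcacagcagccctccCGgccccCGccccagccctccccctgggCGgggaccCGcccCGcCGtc
Jun: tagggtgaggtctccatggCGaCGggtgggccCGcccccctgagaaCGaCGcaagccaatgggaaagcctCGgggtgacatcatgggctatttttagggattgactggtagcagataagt

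These 4 held 8, 14, 16 and 6 CG dinucleotides.

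The broad domains belonged to 300 genes, 3.01% of the 9956 genes with a protein-coding promoter peak. Their median width was 2800 bases (quartiles 2624 and 3064), against 1139 bases for the narrower peaks (quartiles 837 and 1480). Although few, they covered 6.48% of all bases in protein-coding promoter peaks. Of the 304, 91 were 3000 bases or wider and 7 were 4000 bases or wider. Wide peaks were not restricted to promoters, since 1336 peaks of any class reached 2500 bases, among them 443 in introns and 264 in distal intergenic regions. The broad promoter domains lay on all autosomes and on the X chromosome, from 1.87% of the promoter peaks of chromosome 19 to 3.64% of those of chromosome 3. Gramd1b, Kifc3, Magi1 and Magi2 each had 2 broad domains at separate start sites.

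The annotated start site lay within 300 of the 304 domains. The domains spread unevenly around it, with a median of 1003 bases upstream (quartiles 514 and 1596) and 1842 bases downstream (quartiles 1347 and 2323). More of the domain lay downstream than upstream in 211 of the 300 (70.3%), a share like that of the narrower peaks (68.0%). In the gene's own transcript, introns made up a median of 41.8% of the domain and exons 12.7%, against 33.5% and 20.1% for the narrower peaks. Domains with start sites of more than 1 protein-coding gene numbered 17 (5.59%, against 8.10% of narrower peaks), and their signal cannot be assigned to 1 gene. Among those named later, this holds for Aldoa (shared with Fam57b), Dnm1 (Ciz1), Glul (Teddm2), Ndufb5 (Mrpl47), Hnrnpa2b1 (Cbx3), Rdh10 (Rpl7) and Gm5105 (1110002E22Rik). Several domains had the opposite layout, as the plot of domain extents shows.

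**Figure D1:**
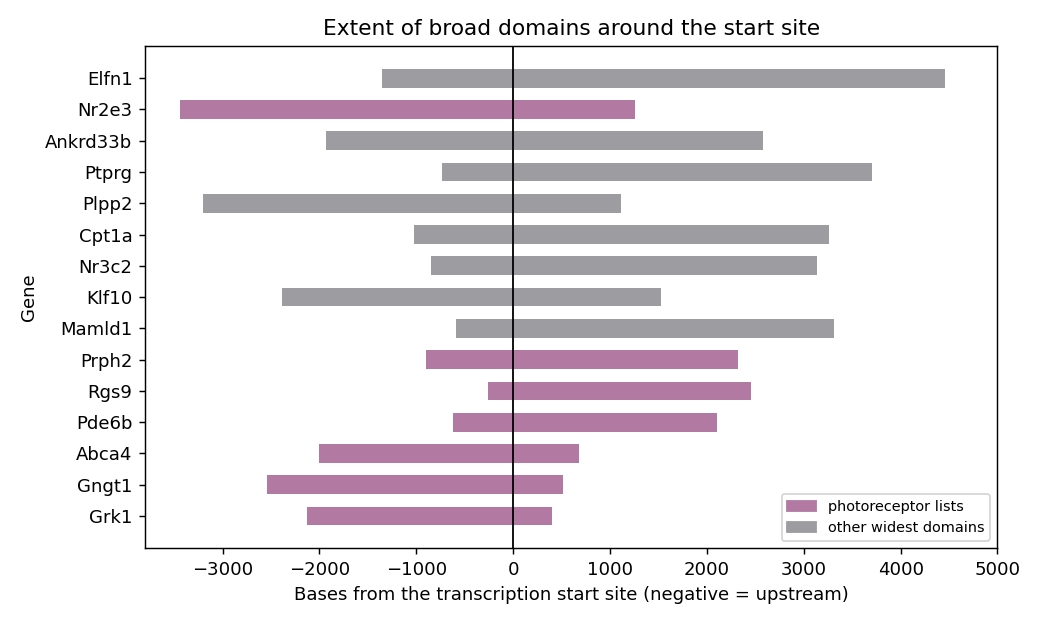
Each bar spans a broad domain in bases from the annotated start site (vertical line), with negative values upstream, for 9 of the widest domains and for the photoreceptor genes. Elfn1 and Ptprg reach furthest downstream, whereas Nr2e3, Plpp2, Gngt1, Grk1, Abca4 and Klf10 lie mostly upstream.

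The widest domain of all was at Elfn1, an adhesion protein of the rod synapse, with 5806 bases at chr5:139906592-139912397, of which 4454 lay downstream of the start. Nr2e3 followed with 4706 bases at chr9:59948856-59953561, of which 3444 lay upstream. Then came Ankrd33b (4508 bases), the receptor tyrosine phosphatase gene Ptprg (4441), the phospholipid phosphatase gene Plpp2 (4316) and Cpt1a (4286). Nr3c2, the mineralocorticoid receptor gene, had 3982 bases, the zinc finger factor gene Klf10 had 3917 and Mamld1 had 3910. At the other end of the rule, the 3 domains just inside it were Adcy1, Rdh10 and Podxl, with 2500, 2501 and 2503 bases. Just outside were Aebp2, 1810013L24Rik and Arhgef10l, with 2499, 2496 and 2495 bases. Mean signal at P28 among the members just inside was 17.5 RPKM at Adcy1, 13.1 at Rdh10 and 17.1 at Podxl. Just outside it was 6.19 at Aebp2, 9.26 at 1810013L24Rik and 3.13 at Arhgef10l. These few peaks differed more than their width classes did. With reads pooled over a class, mean P28 signal was 9.36 RPKM at 2000 to 2499 bases and 10.1 RPKM at 2500 to 2999 bases.

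Genes of retinal function and of glucose use were found among the broad domains. Of 23 rod phototransduction and outer segment genes with a promoter peak, 6 had a broad domain (26.1%), and of 24 glycolysis and lactate genes also 6 (25%), beside 3.01% of all genes with a promoter peak. In the insulin, AKT and GSK3 signalling list 5 of 16 genes had one, among immediate early genes 4 of 23, and among histone acyltransferase, deacylase and chromatin regulator genes 5 of 41. Fewer were found among photoreceptor transcription factors (1 of 14), Mueller glia genes (1 of 14), progenitor and developmental factors (1 of 16), synapse genes (2 of 21), splicing and hnRNP genes (2 of 28) and circadian clock genes (1 of 22). None was found among 53 cytosolic ribosomal protein genes, 15 genes of bipolar, amacrine, horizontal and ganglion cells or 16 chaperone and polyubiquitin genes with a promoter peak, and 1 among 39 oxidative phosphorylation genes. The lists were chosen with earlier results of these data known, so these shares are counts without a test. For the tissue itself, 14 of 16 photoreceptor transcription factor genes had a promoter peak and their summed signal ranged from 60.2 to 63.2 RPKM at P4, from 289 to 308 at P10 and from 283 to 404 at P28. Among 9 markers of the retinal pigment epithelium, the cell layer behind the retina, 4 had a promoter peak, none broad, with summed signals of 11.5 to 15.3 RPKM at P4, 8.76 to 11.0 at P10 and 12.4 to 24.6 at P28. Of 16 markers of vascular, microglial, astrocyte and blood cells 4 had a promoter peak, none broad, with 11.4 to 16.7, 7.67 to 15 and 5.23 to 9.62 RPKM at the same ages. The part of these cells in the broad domains was not tested.

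Depth was much higher at P28, with 1615969 to 8274373 reads in peaks, than at P4 (358971 and 295383) and P10 (199970 and 660740). The broad domains held more reads than other promoters. The median broad domain held 13 and 10 reads in the P4 libraries, 10 and 29 at P10, and 96, 456.5 and 181 at P28, against 4 and 3, 1 and 4, and 19, 87 and 36 reads in the median narrower peak. At P4, 5 broad domains had 3 reads or fewer in both libraries, the limit under which a level cannot be told from none, and no broad domain did at P10 or P28. Of the narrower peaks 40.4% were at that limit at P4 and 41.1% at P10. As a class, the broad domains were thus covered by more reads at the early ages than the narrower peaks.

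Signal in the broad domains increased mainly between P4 and P10. The median domain had 2.13 and 2.08 RPKM in the P4 libraries, 6.35 and 7.72 in the P10 libraries, and 8.60, 9.76 and 11.0 in the P28 libraries. The ages did not overlap. On the log2(RPKM + 1) scale the domains changed by a median of 1.43 up to P10 and of 0.33 after it, and of 1.76 over the whole course. Narrower promoter peaks had the reverse order, with 0.54 from P4 to P10 and 0.75 from P10 to P28. That order turned without P10 replicate 1 (0.78 and 0.52), with limma-voom on the recovered reads (1.03 and 0.62) and with a filter at the median signal (0.76 and 0.69), whereas the broad domains had the larger change before P10 in each of these, with 1.58 and 0.17, 1.87 and 0.32, and 1.44 and 0.33. The median over all 108253 peaks changed by 0.23, 0.39 and 0.68 in the order P4 to P10, P10 to P28 and P4 to P28, and part of each change depends on how libraries are scaled. Scaled to reads in peaks, the medians in that order were 0.44, 0.16 and 0.51 for broad domains. For narrower promoter peaks they were -0.31, 0.55 and 0.29, so that the sign of their change to P10 turned. With quantile normalization they were 0.70, 0.20 and 0.85 for broad domains, and 0.20, 0.46 and 0.71 for narrower peaks.

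Comparing broad and narrower peaks within a library is free of that scaling. Of all reads in protein-coding promoter peaks, the broad domains held 8.13% and 7.63% at P4, 12.6% and 12.4% at P10, and 9.39%, 9.76% and 9.56% at P28. The share was highest at P10 in both libraries, lower again in each P28 library and lowest at P4, with no overlap between ages. Per base, signal in the broad domains was 1.23 ± 0.0636 times that in narrower peaks at P4 (SD, n = 2), 2.06 ± 0.0283 times at P10 (SD, n = 2) and 1.53 ± 0.0300 times at P28 (SD, n = 3). Leaving out the 10 domains with most reads at P10 left shares of 7.49% and 7.04%, 10.7% and 10.7%, and 8.61%, 8.93% and 8.77%. The contrast between P10 and P28 became smaller but the ages still did not overlap. As a share of all reads in peaks, however, the broad domains held 1.32% and 1.20% at P4, 2.08% and 1.78% at P10, and 2.01%, 1.90% and 1.90% at P28, so that on this measure P10 and P28 overlapped. Narrower promoter peaks held 14.4% and 12.6% of all reads in peaks at P10 and between 17.6% and 19.4% at P28. These shares count reads, whose intervals would cover counting error only, and depth was lowest at the ages that stand at either extreme.

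**Figure D2:**
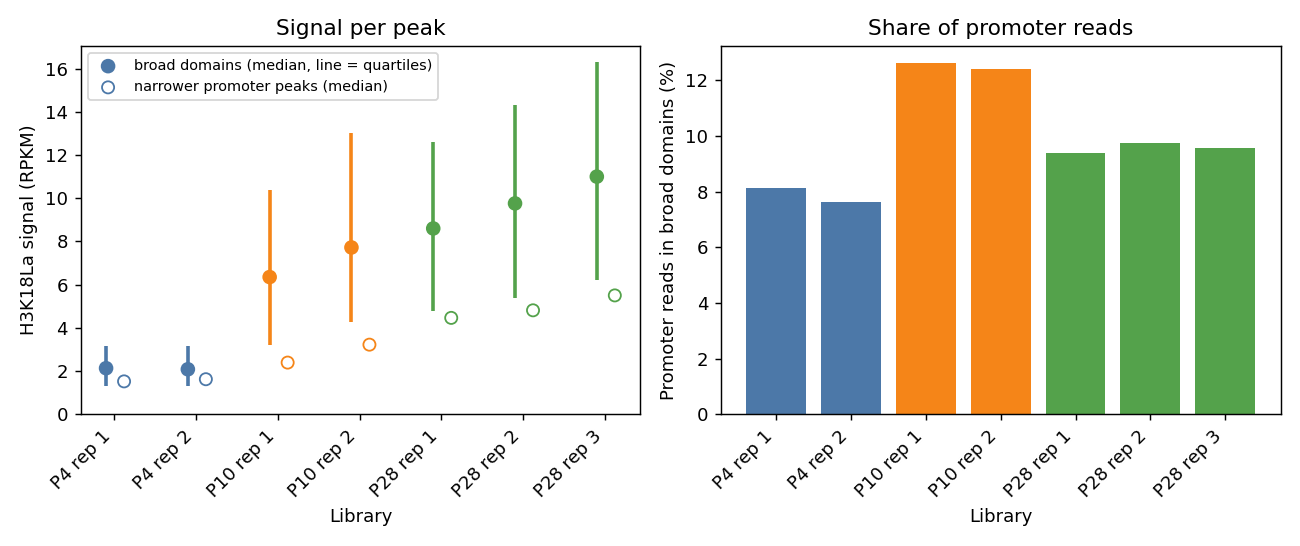
The left panel shows the median H3K18La signal (RPKM) of broad domains with its quartiles and of narrower promoter peaks in each library, and the right panel the percentage of protein-coding promoter reads that lie in broad domains. Broad domains held 12.4% and 12.6% of promoter reads in the P10 libraries, above every other library.

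The median changes were graded over width, with no step at 2500 bases. The median change from P4 to P10 was -0.21 in peaks under 500 bases and 0.26, 0.58, 0.79 and 1.04 in the next 4 classes, each 500 bases wider. In the peaks under 500 bases, where the median peak had 3 reads over both P4 libraries, the pooled signal had the opposite direction, with 1.91 RPKM at P4 and 2.79 at P10. The median change was 1.34 in domains of 2500 to 2999 bases and 1.68 in those of 3000 or more. The change from P10 to P28 went the other way, from 0.88 in the narrowest class to 0.37 and 0.22 in the broad ones. When reads were pooled over a class, the 91 domains of 3000 bases or more had 12.1 RPKM at P10 and 12.5 RPKM at P28, a ratio of 0.965, while the ratio was 0.801 in domains of 2500 to 2999 bases and 0.562 in peaks of 500 to 999 bases, the lowest of the 7 classes. This ratio was not graded at the narrow end, as peaks under 500 bases had 0.678, close to the 0.677 of peaks of 1500 to 1999 bases. At P4 width mattered little, as pooled signal ran from 1.66 to 2.56 RPKM over all classes.

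**Figure D3:**
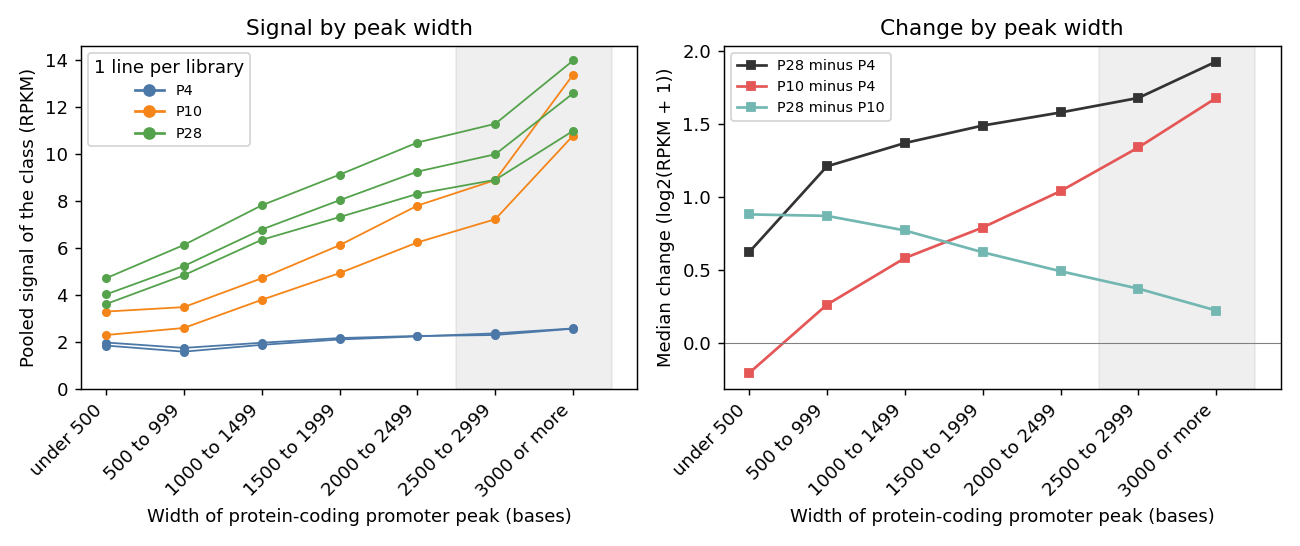
Pooled signal of protein-coding promoter peaks by width class with 1 line per library (left), and the median change between ages in log2(RPKM + 1) (right), with the broad classes shaded. P4 lines stay between 1.58 and 2.57 RPKM, while the P10 lines climb to 10.8 and 13.4 RPKM and meet the P28 lines in the widest class.

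Peak by peak, limma on log2(RPKM + 1) over all peaks, with the Benjamini-Hochberg adjusted p under 0.01, called 206 of the 304 broad domains higher at P28 than at P4 and none lower. Among all peaks 18.9% were called higher and 4.21% lower in that comparison, and among narrower promoter peaks 32.7% were called higher and 0.296% lower. From P4 to P10, 137 broad domains were called higher and none lower. Among all peaks 11.4% were called higher and 7.34% lower, and among narrower promoter peaks 11.3% and 0.917%. Domains called at both later ages numbered 128, at P28 alone 78, at P10 alone 9 and at neither 89. The same split was not counted for narrower promoter peaks or for all peaks, so it has no share to stand beside. The share called at P28 rose with width from 12.2% of peaks under 500 bases to 73.6% of those of 3000 bases or more, and so did the reads behind the test, from a median of 3 to 27 over both P4 libraries. The counts fell to 91 (P28 against P4) and 40 (P10 against P4) without P4 replicate 1, and to 96 and 45 without P4 replicate 2. They were 118 and 69 without P28 replicate 2, and 121 and 94 without P28 replicate 3. Without P28 replicate 1, the batch 2 library, 148 and 99 were called. When libraries were scaled to their reads in peaks, 64 domains were called higher and 6 lower at P28, and 38 higher and 2 lower at P10. Under that scaling the median change of all peaks was -0.29 from P4 to P28 and -0.51 from P4 to P10. Calls among all peaks were not counted there.

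Between P10 and P28 limma called no broad domain at an adjusted p under 0.01, and 2 peaks of all (0.00185%). At an unadjusted p under 0.05 there were 87 of 304 broad domains, beside 35202 of 108253 peaks in all and 4300 of 10796 narrower promoter peaks. An adjusted p under 0.05 was reached by 21 broad domains, of which 18 were higher and 3 lower at P28. At that limit there were 14465 peaks in all (10942 higher, 3523 lower) and 1715 narrower promoter peaks (1657 higher, 58 lower). With limma's voom weights on the reads recovered from the RPKM values, 12 were called higher and 7 lower at the threshold of 0.01. All 3 P28 libraries exceeded both P10 libraries at 132 broad domains (43.4%), against 32.2% of all peaks and 54.5% of narrower promoter peaks. The opposite, both P10 libraries above all P28 libraries, held at 37 broad domains (12.2%), against 14.9% of all peaks and 5.98% of narrower promoter peaks. The mean was higher at P10 than at P28 in 83 domains (27.3%), compared with 17.7% of narrower promoter peaks.

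The photoreceptor genes had high signal by P10. Nr2e3 had 6.57 and 7.86 RPKM in the P4 libraries, 69.4 and 59.3 at P10, and 30.2, 32.8 and 36.0 at P28. Both P10 libraries stood far above the others, at 1.95 times the P28 mean. Its change from P4 to P10 was 2.99 ± 0.26 (SE, limma, adjusted p = 0.000381), from P4 to P28 2.05 ± 0.24 (adjusted p = 0.000278) and from P10 to P28 -0.94 (adjusted p = 0.0314). Grk1 had 7.34 and 7.76 RPKM at P4, 50.5 and 44.4 at P10, and 29.1, 31.5 and 34.3 at P28. It too had its highest values at P10, with a change to P28 of -0.57 (adjusted p = 0.12). At neither gene did the change from P10 to P28 pass the threshold of 0.01.

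In the rod phototransduction and outer segment list all 6 broad domains passed the test at P10 and at P28, with changes of 1.90 to 2.50 and of 1.93 to 2.90. Over all broad domains 45.1% passed at P10 and 67.8% at P28. Abca4, the retinoid transporter of the outer segment disc, had 2.03 and 1.78 RPKM at P4, 10.1 and 12.9 at P10, and 13.4, 19.0 and 21.97 at P28. Prph2, the disc rim protein peripherin-2, had 0.70 and 1.48, then 8.38 and 10.5, then 12.9, 13.9 and 16.4 RPKM. For these genes each later age lay above the one before in all libraries. Both P10 libraries lay above both P4 libraries in 81.9% of broad domains and 36.1% of all peaks. All P28 libraries lay above both P10 libraries in 43.4% of broad domains and 32.2% of all peaks. Gngt1 had 0.89 and 0.98 RPKM at P4, 10.03 and 9.79 at P10, and 5.83, 9.60 and 11.0 at P28, so its P10 and P28 libraries overlapped. Pde6b reached 11.9 and 12.5 RPKM at P10 from 2.17 and 1.75 at P4 and had 11.7, 16.3 and 18.5 at P28, again with overlap. Rgs9, which speeds the shut-off of rod transducin, rose by 1.90 ± 0.39 to P10 (adjusted p = 0.00523) and by 2.65 ± 0.35 to P28 (adjusted p = 0.000513).

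Both genes of the synapse list with a broad domain rose by P10 (changes of 2.80 and 2.68, limma adjusted p = 0.000491 and 0.000883). The share called higher at P10 was 45.1% over all broad domains and 11.4% over all peaks. Cplx3, the complexin of ribbon synapses, had 2.54 and 3.14 RPKM at P4, 27.4 and 24.2 at P10, and 16.3, 17.9 and 22.2 at P28. Dnm1, the dynamin of synaptic vesicle retrieval, had 0.57 and 0.74, then 11.3 and 8.11, then 11.1, 9.94 and 11.4 RPKM. Cplx3 was highest at P10, whereas the P10 and P28 libraries of Dnm1 overlapped. Elfn1, of the rod synapse, had 2.03 and 1.23 RPKM at P4, 9.64 and 14.0 at P10, and 15.5, 14.8 and 17.6 at P28.

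Glycolysis and lactate genes were further from their P28 level at P10 than the rod genes were. All 6 passed the test at P28 (changes of 1.77 to 2.72), but only Aldoa did at P10 (1.80 ± 0.43, adjusted p = 0.00991). Of all broad domains 67.8% passed at P28 and 45.1% at P10. In each of the 6 all P28 libraries lay above both P10 libraries. This held for 43.4% of all broad domains, 54.5% of narrower promoter peaks and 32.2% of all peaks. P10 means of the 6 glycolysis genes were 0.237 to 0.508 of the P28 means, against 0.559 to 1.5 in the 6 rod genes. Pfkfb3, which makes the activator of phosphofructokinase, had 2.86 and 1.5 RPKM at P4, 3.41 and 1.24 at P10, and 9.24, 9.45 and 10.7 at P28. Its P4 and P10 libraries overlapped (change 0.02 ± 0.43, adjusted p = 0.993), and its P28 libraries lay above both. Hk1, the hexokinase of rods and neurons, had 1.32 and 1.15, then 3.48 and 8.11, then 10.1, 11.5 and 12.6 RPKM. Gapdh had 0.97 and 0.64 RPKM at P4, 3.21 and 4.49 at P10, and 7.28, 8.40 and 10.3 at P28, a 10.8-fold increase of the mean over the whole course. Eno2, the neuronal enolase, and Slc16a3, a lactate exporter, followed the same order, with P28 changes of 2.37 ± 0.43 (adjusted p = 0.00235) and 1.77 ± 0.41 (adjusted p = 0.00773).

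**Figure D4:**
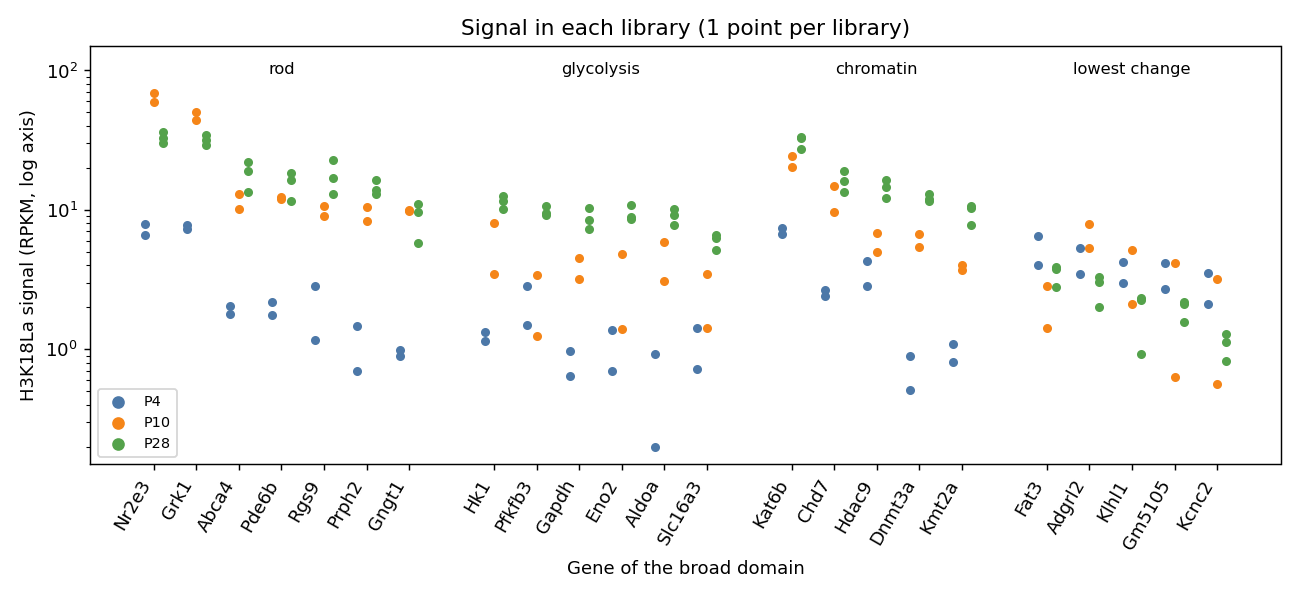
H3K18La signal (RPKM, log axis) of named broad domains with 1 point per library and colours for the ages. Rod genes are higher at P10 than at P4 in every library, with Nr2e3 and Grk1 above their P28 level. Both P10 libraries lie above both P4 libraries in 81.9% of all broad domains, 45.3% of narrower promoter peaks and 36.1% of all peaks. In the glycolysis genes all P28 points lie above the P10 points. The 5 domains with the lowest change from P4 to P28 have lower means at P28 than at P4. Both P10 points of Adgrl2 lie above its P4 points.

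In the chromatin regulator list all 5 broad domains passed the test at P28, beside 67.8% of all broad domains, and 3 passed at P10, near the 45.1% of all broad domains. Kat6b, a histone acetyltransferase, had 7.46 and 6.68 RPKM at P4, 20.2 and 24.4 at P10, and 33.0, 27.2 and 33.3 at P28, among the 5 highest broad domains at P28. Dnmt3a, a de novo DNA methyltransferase, had 0.51 and 0.89, then 5.39 and 6.76, then 11.6, 12.04 and 13.0 RPKM. Each age was separate from the next at both genes. Chd7, a chromatin remodeller, rose to P10 by 1.87 ± 0.33 (adjusted p = 0.00293). Hdac9, a histone deacetylase, and Kmt2a, a histone H3 lysine 4 methyltransferase, did not pass at P10 (adjusted p = 0.202 and 0.0185) and did at P28 (changes of 1.77 and 2.44, adjusted p = 0.00185 and 0.000565).

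In the insulin, AKT and GSK3 signalling list 3 of 5 domains passed at P28 and 1 at P10, with a median change of 1.36 from P4 to P28. In the immediate early list 3 of 4 and 1 did, with a median of 1.65. Over all broad domains 206 of 304 passed at P28 and 137 at P10, with a median change of 1.76, so that the calls at P28 were near the common share in both lists. Foxo1 had 1.85 and 1.62 RPKM at P4, 6.74 and 6.96 at P10, and 8.19, 9.13 and 10.6 at P28. Foxo3 passed at P28 (a change of 1.80, limma adjusted p = 0.00103). Akt1 and Irs2, the insulin receptor substrate, did not (1.34 and 1.25, adjusted p = 0.0412 and 0.0116). Of the immediate early genes, Atf3, a stress-induced factor, passed at P28 (2.79 ± 0.30, adjusted p = 0.000227) and not at P10 (1.28, adjusted p = 0.0143), with 1.30 and 0.95 RPKM at P4, 4.03 and 4.27 at P10, and 13.0, 13.3 and 14.7 at P28. Klf10 had 6.15 and 5.64, then 21.2 and 32.4, then 21.2, 23.3 and 25.3 RPKM, so that P10 and P28 overlapped. Jun rose by 1.49 ± 0.28 to P28 (adjusted p = 0.00294), and the change of Nr4a2, a nuclear receptor, was 0.63 ± 0.47 (adjusted p = 0.299).

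Of the remaining listed genes, Glul, the glutamine synthetase of Mueller glia, had 1.97 and 3.46 RPKM at P4, 2.61 and 8.85 at P10, and 12.6, 10.5 and 14.7 at P28. Its P10 libraries differed widely, and the test was passed at P28 (adjusted p = 0.00732) but not at P10 (adjusted p = 0.286). The splicing factor genes Hnrnpl and Hnrnpa2b1 rose by 2.72 and 1.55 to P28 (adjusted p = 0.00026 and 0.00404), and Dbp, a clock output factor, by 2.38 (adjusted p = 0.000306). Ndufb5, a subunit of respiratory complex I, had a change of 0.69 ± 0.40 (adjusted p = 0.185).

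The largest change from P4 to P28 among called domains was at Ergic1, a protein of the compartment between endoplasmic reticulum and Golgi. It had 0.58 and 1.52 RPKM at P4, 6.89 and 13.5 at P10, and 20.5, 20.6 and 23.1 at P28, a change of 3.49 ± 0.35 (adjusted p = 0.000174). Mfge8, which bridges shed outer segments to phagocytes, had 1.98 and 1.18, then 10.04 and 7.83, then 24.4, 26.0 and 28.9 RPKM. At both genes each later age lay above the one before in all libraries, although the change from P10 to P28 did not pass the threshold (adjusted p = 0.0711 and 0.0157). They were picked by their rise from P4 to P28. All P28 libraries lay above both P4 libraries in 92.1% of broad domains and 50.6% of all peaks. Llgl2 had 0.74 and 1.16 RPKM at P4, 17.6 and 18.4 at P10, and 14.8, 17.0 and 20.0 at P28. Its P10 and P28 libraries overlapped, as did those of Srebf1, the regulator of lipid synthesis, with 1.36 and 0.89, then 14.2 and 15.3, then 14.5, 15.1 and 15.1 RPKM. Gramd2, the retinoic acid receptor gene Rara, Plpp2, the dopamine receptor gene Drd4, Dnmt3a and the actin-binding coronin gene Coro2b completed the 10, with changes of 2.91 to 3.11. Slc1a2, a glutamate transporter, had the highest mean signal at P28 of all broad domains, with 34.6, 36.7 and 39.8 RPKM, after 9.29 and 6.57 at P4 and 41.9 and 31.3 at P10.

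A minority of broad domains rose little or not at all by P28. In 13 of the 304 the change from P4 to P28 was below 0 and in 32 it was 0.5 or less, and limma called none of them lower. The change was above 0 in 95.7% of broad domains, 89.9% of narrower promoter peaks and 66.5% of all peaks. The 5 lowest changes were at Kcnc2 (-0.86 ± 0.52, adjusted p = 0.202), Klhl1 (-0.74), Gm5105 (-0.58), Adgrl2 (-0.50) and Fat3 (-0.46), with adjusted p of 0.22 to 0.391 for the last 4. Kcnc2, a voltage-gated potassium channel of fast-spiking neurons, had 3.53 and 2.11 RPKM at P4, 3.19 and 0.56 at P10, and 0.83, 1.13 and 1.28 at P28. Fat3, an atypical cadherin of amacrine cells, had 6.5 and 4.03, then 1.43 and 2.82, then 2.81, 3.74 and 3.91 RPKM. At both genes the P4 libraries lay above all P28 libraries, with 32 and 53 reads at P4 behind them. Sox4 had 4.0 and 5.03 RPKM at P4, 4.15 and 4.23 at P10, and 3.02, 3.91 and 4.70 at P28, so its ages overlapped (change -0.19 ± 0.34, adjusted p = 0.672). Ptprg, the fourth widest domain, had 1.84 and 4.03, then 1.63 and 3.91, then 2.13, 2.80 and 2.80 RPKM.

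Some domains with a peak of signal at P10 were outside the lists, and these were chosen after their values were seen. Slc5a2, a sodium glucose cotransporter, had 2.23 and 2.77 RPKM at P4, 21.7 and 28.2 at P10, and 10.5, 12.6 and 12.5 at P28. Tmem106c had 3.21 and 1.78, then 22.2 and 16.7, then 7.33, 9.27 and 9.71 RPKM. In both domains the P10 libraries lay above every other library, and limma's adjusted p between P10 and P28 was 0.0414 and 0.0519. Mical3, an oxidase that disassembles actin, had 6.21 and 6.16 RPKM at P10 between 2.98 and 1.31 at P4 and 2.22, 2.36 and 2.11 at P28, so that P28 against P4 alone showed almost no change (0.09).

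**Figure D5:**
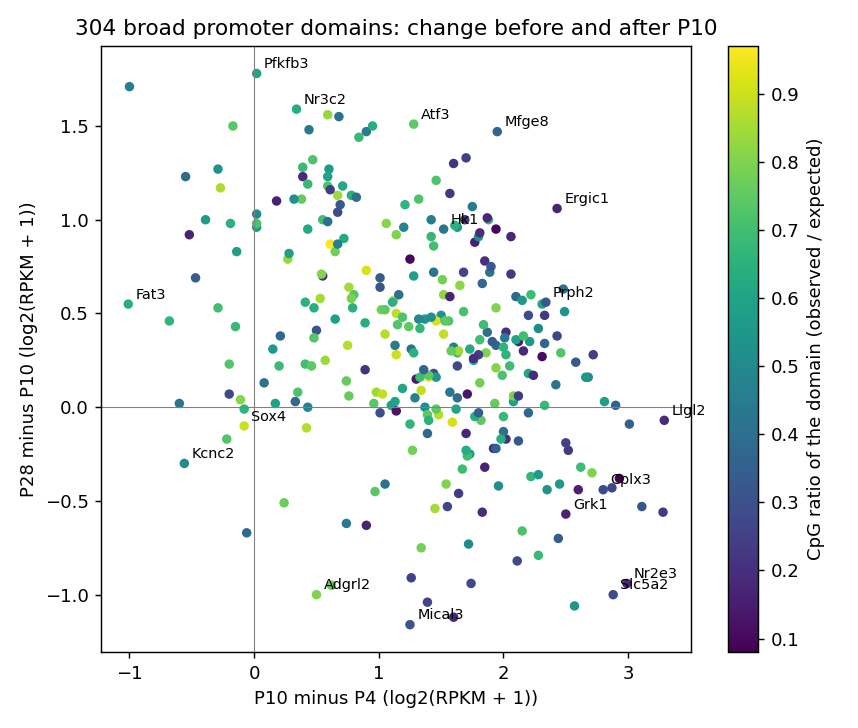
Each of the 304 broad domains by its change from P4 to P10 (x axis) and from P10 to P28 (y axis), both in log2(RPKM + 1), coloured by its CpG ratio. Pfkfb3, Nr3c2 and Atf3 had the larger change after P10, Llgl2 had nearly all of its change before P10, and Nr2e3, Slc5a2 and Mical3 rose and then fell in their mean.

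The 2 start sites of a gene could differ. At Magi2, a scaffold protein of synapses and junctions, one domain had 4.45 and 4.18 RPKM at P4, 10.8 and 18.2 at P10, and 17.7, 19.9 and 22.9 at P28. The other had 2.10 and 2.30, then 0.70 and 2.13, then 2.22, 2.34 and 3.73 RPKM, and its change from P4 to P28 was 0.21 (adjusted p = 0.718). The first passed the test (1.99 ± 0.30, adjusted p = 0.000847). Both domains passed at Gramd1b (changes of 2.08 and 2.76) and at Kifc3 (1.92 and 1.65), and at Magi1 one did (1.49, adjusted p = 0.00762) and the other did not (0.91, adjusted p = 0.0754).

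Broad domains were poorer in CpG than narrower peaks. Their median GC content was 58.1% (narrower peaks, 59.3%), and their median CpG ratio, the observed number of CG dinucleotides over that expected from base composition, was 0.576 (narrower peaks, 0.675). A CpG ratio under 0.4 was found in 96 broad domains (31.6%) and in 18% of narrower peaks. Domains of 3000 bases or more had a median CpG ratio of 0.41. Near the start site the difference was small: in windows of RefSeq promoter sequence from 250 bases before to 50 bases after the start, matched for 195 of the 304 domains, the medians were 0.755 and 0.769, against 0.384 for all 32851 windows.

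Within the broad domains, CpG content went with the size of the change from P4 to P10 when they were split into 4 CpG classes of equal size. The class with the lowest CpG ratio (0.0809 to 0.34, 76 domains) had median changes of 1.82 to P10 and 2.07 to P28, and the class with the highest (0.718 to 0.972, 76 domains) had 1.13 and 1.48. From P10 to P28 the median changes were 0.25, 0.36, 0.43 and 0.30 from the lowest to the highest class, with no grading over CpG. Limma called 48 domains of the lowest class and 22 of the highest at P10. Pooled signal of the lowest class was 1.98 and 2.19 RPKM at P4, 10.8 and 13.4 at P10, and 10.5, 12.3 and 13.8 at P28, so that P10 and P28 overlapped. In the highest class it was 3.04 and 2.95, then 7.25 and 8.85, then 9.20, 9.98 and 11.3 RPKM, with the ages apart. The lowest class had the lower signal at P4 and the higher at P10. It was also the higher within each P28 library (10.5 against 9.20, 12.3 against 9.98 and 13.8 against 11.3 RPKM), although the ranges over these libraries overlapped. The median width of the lowest class was also larger (2974 against 2686 bases), and its domains had fewer reads at P4 (medians of 19 against 30 over both libraries). In narrower promoter peaks within the same CpG limits the medians ran the other way, with changes of 0.49 in the lowest class and 0.57 in the highest to P10, and of 1.04 and 1.39 to P28. The share called at P28 did so too (27.1% and 34.5%, beside 73.7% and 61.8% in the broad domains). At P10, however, calls and pooled signal had the order of the broad domains. Limma called 15.9% of the lowest narrower class higher at P10 and 9.84% of the highest, beside 63.2% and 28.9% in the broad domains. Pooled signal at P10 was 3.21 and 2.14 times its P4 level in these narrower classes, beside 5.81 and 2.69 times in the broad domains. Whether the order over CpG differs between broad and narrower peaks was not tested. Domains of the rod list had CpG ratios of 0.17 to 0.38, those of the glycolysis list 0.33 to 0.60 and those of the insulin and AKT list 0.64 to 0.89.

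Short motifs were counted on both strands over whole peaks. TAATCC occurred 0.292 times per kilobase in broad domains and 0.270 times in narrower peaks. In the CpG-poor class of the broad domains it was 0.384 and in the CpG-rich class 0.194, but narrower peaks had a similar range, from 0.442 to 0.211, within the same CpG limits. GGGCGG, bound by SP and KLF factors, was less frequent in broad domains (2.03 against 2.72 per kilobase), as was CCGGAAG, the ETS site of many housekeeping promoters (0.113 against 0.286). CCAAT occurred 1.01 and 1.20 times, CACGTG 0.186 and 0.246, TATAAA 0.251 and 0.221 and TGCTGA, a partial site of MAF-family factors such as NRL, 0.696 and 0.638 times per kilobase. In the windows around the start, 9.74% of broad, 6.06% of narrower and 7.06% of all RefSeq promoters held TAATCC, 70.8%, 67.2% and 35.7% held GGGCGG, and 6.67%, 16.5% and 8.86% held CCGGAAG. For CCAAT the shares were 31.3%, 38.4% and 37.4%, for TATAAA 10.3%, 6.63% and 13.6%, for TGCTGA 13.8%, 15.6% and 19.5%, and for CACGTG 8.72%, 10.6% and 7.15%. These matches describe letters and not bound sites.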

How the data were processed

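The data are CUT&Tag libraries of H3K18La in mouse retina, 7 in number. The authors mapped reads to GRCm38 with nf-core/cutandrun, called peaks with MACS (-log10 q above 6, seen in at least 2 replicates, blacklisted regions removed), merged the ages and annotated peaks with ChIPseeker 1.34.1 on Ensembl transcripts, with promoters from 1000 bases before to 500 bases after a start site. The authors deposited RPKM values from csaw, which divide the reads of a peak by its length and by a library size normalized on 10000-base windows. Their deposited table of fold changes and p-values was not used.

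From these values, RPKM multiplied by width was a whole multiple of 1 step (tolerance 0.05) for 100% of values in each library, which gave reads per peak. A linear model of age was fitted to log2(RPKM + 1) in limma (version 3.58.1, under R 4.3.3), using its intensity trend, for 108253 peaks in 7 libraries. The ages were compared pairwise, and calls required 0.01 after Benjamini-Hochberg adjustment over all peaks. The script was tested on simulated data. Errors with a change are standard errors of this fit. Libraries are labelled replicates without further detail, and the authors' methods refer to biological replicates. The p-values measure the spread between these libraries. Same-age libraries differed beyond counting noise (chi-square per degree of freedom of 1.11 to 1.64 over broad domains), so each counted as 1 replicate. Sequence came from the RefSeq GRCm38.p6 assembly and gene models from GENCODE.

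Named domains were the 10 widest, the 10 largest rises from P4 to P28 among called, the 5 lowest changes, the 5 highest at P28, 3 on each side of the width limit, and all members of the 17 gene lists. Some domains that this rule names are not reported here. The members and lists were chosen with earlier results of these data known.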

Additional observations from a re-analysis of the deposited data

How the results depend on the processing

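No broad domain was called lower at P28 or P10 than at P4 under any setting except scaling to reads in peaks, quantile normalization and, at P28, limma-voom on the recovered reads, an alternative chosen after seeing the data. Called domains at P28 against P4 numbered 70 with scaling to reads in peaks (64 higher, 6 lower), 104 with quantile normalization (97 higher, 7 lower), 563 of 946 at a width of 2000 or more, 67 of 91 at a width of 3000 or more, and 91 to 239 when 1 library was left out. At P10 against P4 they numbered 40 and 37 under the same 2 scalings, 314 and 50 at those widths, and 40 to 152 without 1 library, with 69 without P28 replicate 2. At P28 against P10 they numbered 4 (all lower) with median centring, 19 with limma-voom, 21 at an adjusted p under 0.05, and 0 to 14 without 1 library, the 14 without P10 replicate 2. The median change at P28 against P4 was 2.10 with a pseudocount of 0.1, 0.51 scaled to reads in peaks, 1.23 with median centring, 0.85 with quantile normalization, 2.13 with limma-voom, 1.93 at a width of 3000 or more, and 1.67 to 1.85 without 1 library. At P10 against P4 it was 1.82, 0.44, 1.18, 0.70, 1.87 and 1.68 in the same order, 1.15 at a width of 2000 or more, and 1.24 to 1.58 without 1 library. At P28 against P10 it was 0.16 scaled to reads in peaks, 0.06 with median centring and 0.17 to 0.50 without 1 library. Scaling to reads in peaks moved the median of all peaks at P28 against P4 from 0.68 to -0.29. The excess of broad over narrower peaks gained from P4 to P28 (0.59) was 0.43 with a filter at the median signal, 0.48 scaled to reads in peaks, 0.32 with quantile normalization, 0.45 and 0.80 at widths of 2000 and 3000 or more, and 0.55 to 0.63 without 1 library. The share of promoter reads in broad domains was 2.94 percentage points higher at P10 than at P28, and 1.93 without the 10 domains with most reads at P10 (2.83 to 3.05 without 1 library). The difference between the lowest and highest CpG classes at P10 (0.69) was 0.99 with a pseudocount of 0.1, with quantile normalization and with limma-voom, and 0.66 to 0.76 without 1 library. Apart from these, the cause of each shift was not tested.

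Of 49 named domains called at P28 against P4, 26 remained called when scaled to reads in peaks, 29 with quantile normalization, 28 without P4 replicate 2, 34 without P4 replicate 1, 37 without P28 replicate 2 or 3 and 40 without P28 replicate 1, and all 49 without a P10 library. Signs changed at Nr4a2 (-0.52 and -0.04 under the 2 scalings), Irs2 (-0.08 and -0.03), Mamld1 (-0.02 and -0.04) and Ndufb5 (-0.46 scaled to reads in peaks), and at Ptprg, whose change ranged from -0.50 to 0.32 without 1 library. With the replicate number as a replicate block, 147, 122 and 0 domains were called in the 3 contrasts. Same-numbered libraries did not deviate together (correlations of -0.001 to 0.0469), so the numbers were not treated as pairs. The planned count tests on recovered reads with edgeR and DESeq2 were not run, and limma-voom on those reads was added instead. Depth limits the early ages, where the median domain held 10 to 29 reads per library.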
